A study of Mus musculus with 12 samples.

Results

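The enzymes that write and remove DNA methylation were followed at the transcript level across 6 doses of dTAG13 in mouse embryonic stem (mES) cells. The set was chosen by gene symbol from the counts table and holds 8 of its 24421 genes. It comprises Dnmt1 and Uhrf1, which maintain methylation, Dnmt3a, Dnmt3b and Dnmt3l of the de novo machinery, and the TET genes Tet1, Tet2 and Tet3. Measured values played no part in the rule, and all 8 genes passed the filter on low values, a mean of at least 1 RPKM (reads scaled to exon length in kilobases and to library size) over the 12 libraries.

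All cells were mES cells of the B6 strain (C57BL/6J in the study's methods) kept in 2i+LIF, carried the Brg1 dTag knock-in and descended from single-cell-derived colonies, so the controls carry the tagged allele too and the line is clonal. The tag lets dTAG13 send BRG1, the ATPase of the mSWI/SNF chromatin remodeller, to the proteasome. Cells received 0, 0.3, 1, 3, 10 or 100 nM dTAG13 for 24 h, and total RNA was sequenced in 2 libraries per dose. The study gives its expression data as coming from independent experiments. The labels do not tie each library to a culture or experiment, and p-values measure the spread between these libraries. In bulk RNA, fewer cells of a type and less RNA per cell cannot be told apart.

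DNA methyltransferases place a methyl group on the cytosine of CpG dinucleotides. DNMT3A and DNMT3B set new marks, helped by the catalytically inactive DNMT3L, whereas UHRF1 brings DNMT1 to hemimethylated DNA after replication. TET proteins oxidize 5-methylcytosine to 5-hydroxymethylcytosine and further products, which leads to its loss. mES cells in 2i are known for low global methylation, and TET1 and TET2 are the TET proteins they mainly express.

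Libraries held 4663484 to 6375582 counts (median 5956670), with 10.5% to 19.4% of counts from Rn45s, a ribosomal RNA precursor gene. The number of genes with a count was 18089 and 18199 in the 0 nM libraries and 20608 and 20665 at 100 nM, and the part of this in the results was not tested. By raw counts with Rn45s included, the 3 nM pair differed most (chi-square of 18.4 per degree of freedom), and its replicate 1 was the shallowest library. Rn45s made up 10.5% and 19.0% of counts in that pair, so the value does not give the spread of the other genes alone. Smarca4, the gene of BRG1, stood at 64.0 and 63.2 RPKM at 0 nM and 71.0 and 70.9 RPKM at 100 nM. The degron acts on the protein, so this transcript does not check the labels. The 7 naive mES cell markers summed to 1249 to 1286 RPKM at 0 nM and 1254 to 1294 RPKM at 100 nM, with each of them detected, whereas the 6 primitive endoderm markers and the 7 fibroblast markers summed to no more than 2.65 RPKM in the libraries of any dose.

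The maintenance genes Dnmt1 and Uhrf1 did not pass the test at any dose. Tet1 and Dnmt3a fell, Tet3 rose, and Tet2 and Dnmt3b rose, with mean levels nearer to the control at 100 nM than at 10 nM. Dnmt3l was called at 100 nM alone, where it was lower, while its libraries at 0.3, 1 and 3 nM lay above both controls without a call. Called means a Benjamini-Hochberg adjusted p under 0.05 in edgeR's quasi-likelihood test over the 11378 genes that passed the filter. At 0.3 nM, 0 of the 8 genes were called against 0.0703% of all genes tested. DESeq2 also called 0 there. In edgeR 4 of the 8 had an unadjusted p under 0.05, but the share of all genes under it was not counted, so nothing is read from this. At 1 nM 4 were called (3 higher, 1 lower) against 2.38% of all genes. At 3 nM 5 were called (3 higher, 2 lower) against 9.53%, and at 10 nM 5 (3 higher, 2 lower) against 17.7%. At 100 nM 6 were called, 3 higher and 3 lower, against 23.4% of all genes. A fold change over 1.5 as well was reached at 100 nM by 2 genes, Tet1 and Tet3, against 11.2% of all genes. The median log2 fold change of the 8 genes at 100 nM was -0.0158, beside -0.000553 over all genes tested. The comparisons at the 5 doses share the same 0 nM libraries and are not independent of each other. The 1 nM calls were the least stable, and some were lost whenever a 0 or 1 nM library was left out. Such a fit keeps 1 library at that dose, and far fewer of all genes were called in it too.

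**Figure D1:**
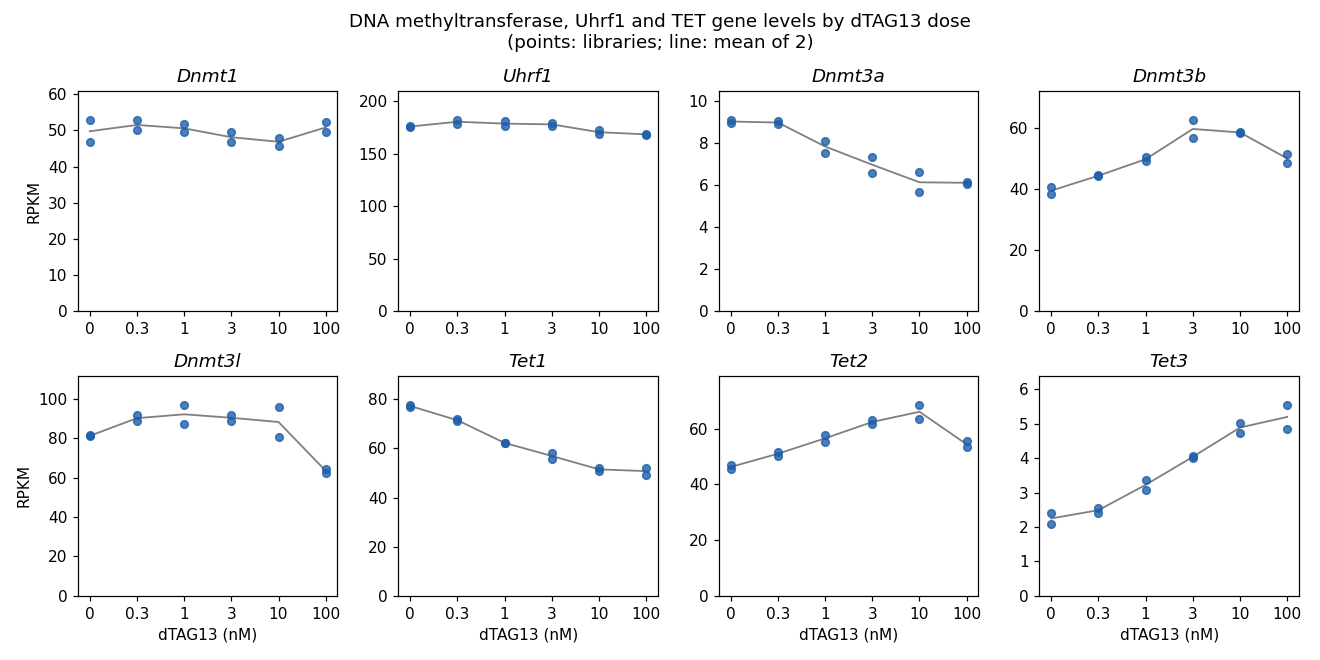
RPKM (y axis, from 0) of each of the 8 genes in the 12 libraries against the dTAG13 dose in nM (x axis, doses evenly spaced). Points are libraries and the line joins the means of 2; Tet1 went from 77.3 to 50.8 RPKM and Tet3 from 2.25 to 5.19 RPKM between 0 and 100 nM, while Uhrf1 stayed between 168 and 183 RPKM in all 12 libraries.

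At 0 nM the order by level per length ran from Uhrf1 at 176 ± 1.26 RPKM (SD, n = 2 here and below) through Dnmt3l (81.2 ± 0.376), Tet1 (77.3 ± 0.784), Dnmt1 (49.8 ± 4.25), Tet2 (46.2 ± 1.08), Dnmt3b (39.5 ± 1.70) and Dnmt3a (9.01 ± 0.123) to Tet3 (2.25 ± 0.238). Dnmt1 and Tet2 overlapped in their libraries and were not separated, while the other neighbours did not overlap. At 100 nM Uhrf1, Dnmt3l and Tet2 led at 168.5, 63.4 and 54.3 RPKM. Dnmt1, Tet1 and Dnmt3b followed at 50.8, 50.8 and 50.1 RPKM with overlapping libraries, and Dnmt3a (6.10 RPKM) and Tet3 (5.19 RPKM) stayed last. Tet1 lay above Tet2 in both libraries at 0, 0.3 and 1 nM, and from 3 nM on Tet2 lay above Tet1, again with no overlap.

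Dnmt1, the maintenance methyltransferase (mm10 chromosome 9, 20907206 to 20959888, minus strand), ranged from 45.8 to 53.0 RPKM over the 12 libraries. At every dose its libraries overlapped those of 0 nM. At 100 nM its log2 fold change was 0.03 (95% interval -0.10 to 0.16, adjusted p = 0.783, edgeR). Uhrf1, which reads hemimethylated DNA and recruits DNMT1 (chromosome 17, 56303337 to 56323486, plus strand), ranged from 168 to 183 RPKM. Its 100 nM libraries (168.7 and 168.3 RPKM) lay below those of 0 nM (176.9 and 175.1 RPKM), a small difference that did not pass the test. As a log2 fold change this was -0.06 (95% interval -0.16 to 0.04, adjusted p = 0.397, edgeR). With the scaling factors taken over every gene of the table, a setting chosen after seeing the data, it was -0.14 with an adjusted p of 0.034, and Dnmt1 was at -0.05. That scaling moved the median of all tested genes at 100 nM to -0.0811, and only 26.9% of its 2976 calls were higher, against 43.0% of the 2659 calls of the scaling used here.

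Dnmt3a, a de novo methyltransferase (chromosome 12, 3806980 to 3914443, plus strand), fell with dose. Its RPKM was 8.93 and 9.10 (0 nM), 8.88 and 9.06 (0.3 nM), 8.11 and 7.54 (1 nM), 6.59 and 7.33 (3 nM), 6.595 and 5.65 (10 nM), and 6.06 and 6.13 (100 nM). The libraries of 1 nM and above all lay below both 0 nM libraries. Against 0 nM the change at 3 nM was -0.37 on the log2 scale (standard error, SE, 0.0904, adjusted p = 0.00849), a call that was lost without 0 nM replicate 2 (adjusted p = 0.0669) or without 3 nM replicate 1 (adjusted p = 0.126). The 10 nM value was -0.56 (SE 0.0905, adjusted p = 6.38e-05), and 100 nM gave the same -0.56 (SE 0.0904, adjusted p = 3.43e-05, each by edgeR), a level of 67.7% of the control. Between 10 and 100 nM the difference was -0.01 on the log2 scale (95% interval -0.20 to 0.19).

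Dnmt3b, the other de novo methyltransferase (chromosome 2, 153649449 to 153687730, plus strand), moved the opposite way. Its RPKM was 38.3 and 40.7 (0 nM), 44.2 and 44.7 (0.3 nM), 50.5 and 49.15 (1 nM), 62.8 and 56.7 (3 nM), 58.9 and 58.4 (10 nM), and 51.6 and 48.6 (100 nM). Every treated library lay above both controls. On the log2 scale 1 nM gave a rise of 0.33 (SE 0.0661, adjusted p = 0.00518), 3 nM of 0.60 (SE 0.066, adjusted p = 7.99e-07) and 10 nM of 0.57 (SE 0.0657, adjusted p = 4.96e-07). The 1 nM call was lost without 0 nM replicate 1 (adjusted p = 0.104), 1 nM replicate 1 (0.0869) or 1 nM replicate 2 (0.0507). With 100 nM the rise was 0.34 (SE 0.0661, adjusted p = 0.000338, edgeR). The step from 10 to 100 nM, -0.23 (95% interval -0.36 to -0.09), missed the threshold with an adjusted p of 0.0683. That step passed without 3 nM replicate 1 (adjusted p = 0.0344) or 3 nM replicate 2 (adjusted p = 0.0367). Neither library belongs to the doses of that step, and the cause was not tested.

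Dnmt3l, the cofactor that stimulates both de novo enzymes (chromosome 10, 78042287 to 78063622, plus strand), was not called up to 10 nM and fell at 100 nM. Its RPKM was 81.45 and 80.9 (0 nM), 91.6 and 88.7 (0.3 nM), 87.2 and 97.0 (1 nM), 88.95 and 91.7 (3 nM), 95.8 and 80.6 (10 nM), and 62.4 and 64.5 (100 nM). The 100 nM libraries were below all the others. Relative to 0 nM the 100 nM level was lower by a log2 fold change of -0.36 (SE 0.0741, adjusted p = 0.000738), and relative to 10 nM by -0.48 (SE 0.0738, adjusted p = 0.000265, both by edgeR). From 0.3 to 10 nM its changes against 0 nM lay between 0.12 and 0.18 on the log2 scale and were not called. At 10 nM the 2 libraries were far apart, and without replicate 2 of that dose the change was 0.25 with an adjusted p of 0.0272.

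The opposite courses of Dnmt3a and Dnmt3b changed their proportion. The ratio of Dnmt3b RPKM to Dnmt3a RPKM, which does not depend on the scaling between libraries, was 4.38 ± 0.129 in the controls, 6.37 ± 0.204 with 1 nM, 9.63 ± 0.993 with 10 nM and 8.22 ± 0.409 with 100 nM. Every treated library lay above both controls in this ratio. The summed RPKM of Dnmt1, Dnmt3a and Dnmt3b was 98.3 ± 2.42 at 0 nM and 107 ± 4.03 at 100 nM.

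Tet1 (chromosome 10, 62804570 to 62880014, minus strand), the main TET dioxygenase transcript of the untreated cells, fell at each dose from 1 nM up. Its RPKM was 76.7 and 77.8 (0 nM), 71.1 and 71.9 (0.3 nM), 62.4 and 62.1 (1 nM), 55.8 and 58.1 (3 nM), 52.1 and 50.9 (10 nM), and 49.35 and 52.2 (100 nM). The pairs of the 5 lowest doses did not overlap each other, while those of 10 and 100 nM did. As log2 fold changes, 1 nM gave -0.31 (SE 0.0494, adjusted p = 0.000484), 3 nM -0.44 (SE 0.0496, adjusted p = 9.9e-07), 10 nM -0.59 (SE 0.0497, adjusted p = 3.51e-09) and 100 nM -0.61 (SE 0.0497, adjusted p = 7.12e-10, each by edgeR). These 4 calls held in every alternative. The step from 10 to 100 nM was -0.02 (95% interval -0.12 to 0.08).

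Tet2 (chromosome 3, 133463677 to 133544390, minus strand) rose up to 10 nM and was lower again at 100 nM. Its RPKM was 47.0 and 45.5 (0 nM), 51.7 and 50.3 (0.3 nM), 57.7 and 55.25 (1 nM), 61.7 and 63.0 (3 nM), 63.45 and 68.6 (10 nM), and 53.3 and 55.4 (100 nM). All treated libraries were above both controls, and those of 100 nM were below those of 3 and 10 nM. In log2 units Tet2 gained 0.29 with 1 nM (SE 0.0549, adjusted p = 0.00338), 0.43 with 3 nM (adjusted p = 5.88e-06), 0.51 with 10 nM (SE 0.0548, adjusted p = 1.44e-07) and 0.23 with 100 nM (SE 0.0549, adjusted p = 0.0024, each by edgeR). Without the filter on low values the 100 nM change was 0.15 and no longer called (adjusted p = 0.0523). The 1 nM call was lost without 0 nM replicate 2 (adjusted p = 0.083) or 1 nM replicate 1 (adjusted p = 0.0954). The step from 10 to 100 nM was -0.28 (SE 0.0544, adjusted p = 0.00349), and it was not called without 10 nM replicate 2 (adjusted p = 0.0523) or 100 nM replicate 1 (adjusted p = 0.0918).

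Tet3 (chromosome 6, 83362374 to 83441678, minus strand), the least abundant of the 8 transcripts, changed most. Its counts were 154 and 140 in the controls and 320 and 372 with 100 nM. Its RPKM was 2.42 and 2.08 (0 nM), 2.41 and 2.56 (0.3 nM), 3.37 and 3.08 (1 nM), 4.067 and 4.003 (3 nM), 4.74 and 5.03 (10 nM), and 4.835 and 5.55 (100 nM). From 1 nM on, both libraries of each dose lay above both controls. The gain in log2 units was 0.52 with 1 nM (SE 0.122, adjusted p = 0.0183), 0.85 with 3 nM (SE 0.12, adjusted p = 2.78e-05), 1.12 with 10 nM (SE 0.116, adjusted p = 8.63e-08) and 1.21 with 100 nM (SE 0.115, adjusted p = 1.04e-08, each by edgeR), a level 2.31 times the control. The 1 nM call was lost without 0 nM replicate 2 (adjusted p = 0.267), 1 nM replicate 1 (0.202) or 1 nM replicate 2 (0.0742), whereas those at 3, 10 and 100 nM held in every alternative. Of all genes tested, 5.26% changed by as much as Tet3 at 100 nM in either direction, and 16.7% by as much as Tet1.

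**Figure D2:**
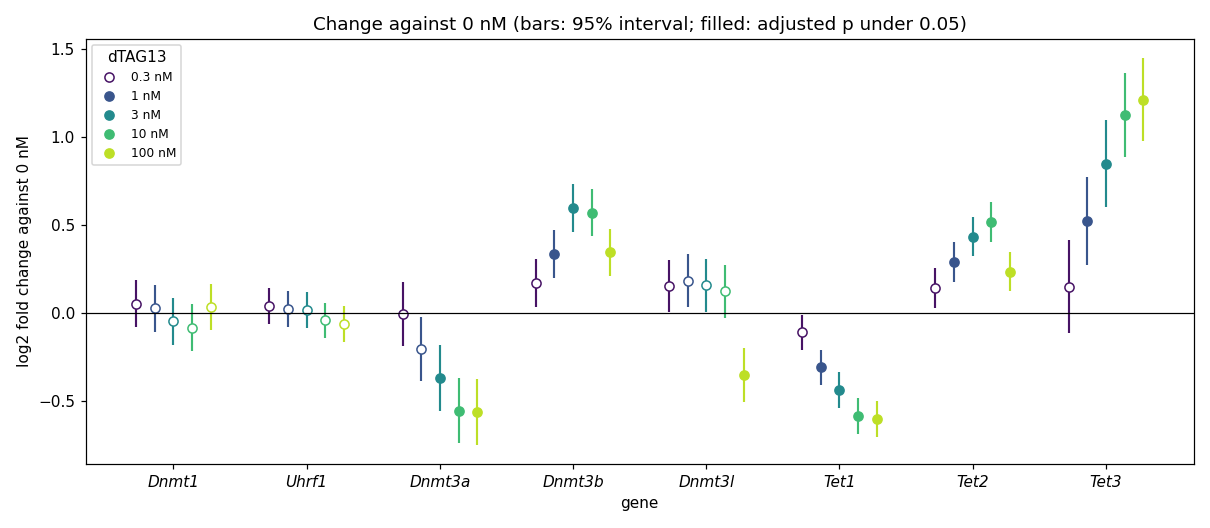
Log2 fold change against 0 nM (y axis) of the 8 genes (x axis) at the 5 doses, coloured by dose, from the edgeR fit. Bars are 95% intervals and filled points have an adjusted p under 0.05; at 100 nM Tet3 is at 1.21, Dnmt3b at 0.34, Tet2 at 0.23, Dnmt3l at -0.36, Dnmt3a at -0.56 and Tet1 at -0.61, and the Dnmt1 and Uhrf1 points are open at all doses.

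Within the TET family, the make-up of the transcripts shifted more than their sum. Tet1 made up 61.5% ± 0.884 of the summed RPKM of the 3 genes in the controls, 51.05% ± 0.735 with 1 nM, 42.1% ± 1.73 with 10 nM and 46.0% ± 0.163 with 100 nM. Tet2 made up 36.8% ± 0.700 in the controls, 53.9% ± 1.66 with 10 nM and 49.3% ± 0.453 with 100 nM, and Tet3 went from 1.79% ± 0.182 to 4.70% ± 0.287 at 100 nM. The ratio of Tet1 to Tet2 was 1.67 ± 0.0559 at 0 nM and 0.782 ± 0.0561 at 10 nM. The sum was 125.8 ± 0.495 RPKM in the controls, 122.4 ± 2.97 with 10 nM and 110.4 ± 4.03 with 100 nM. These shares are ratios within a library and were not tested separately.

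**Figure D3:**
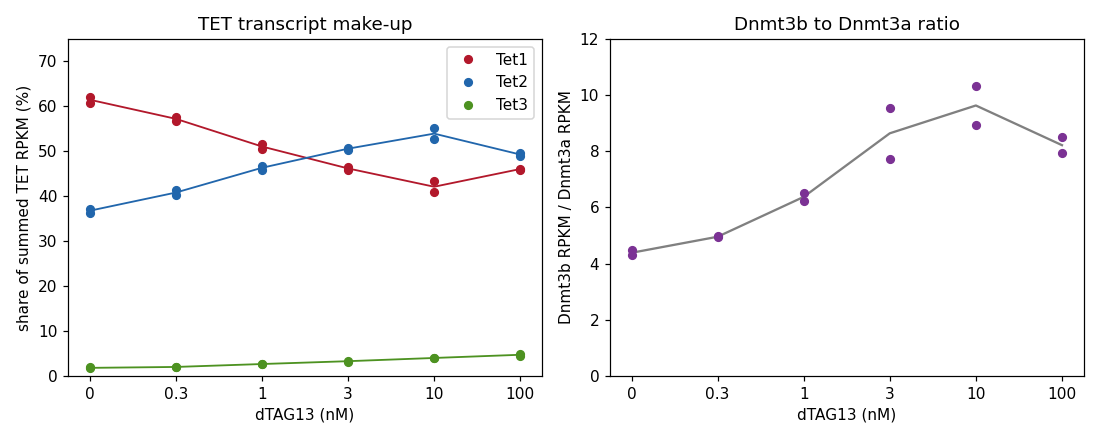
Left, share of the summed TET RPKM in percent (y axis) for Tet1, Tet2 and Tet3 by dTAG13 dose in nM (x axis, evenly spaced); right, Dnmt3b RPKM divided by Dnmt3a RPKM. Points are libraries and lines join the means of 2; the Tet1 and Tet2 lines cross between 1 and 3 nM, and the ratio goes from 4.38 at 0 nM to 9.63 at 10 nM.

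Library numbers in the labels form separate runs, 1 for the 0, 1, 10 and 100 nM doses and another for 0.3 and 3 nM, and their meaning is not stated. Inside a run, the steps from 0.3 to 3 nM and from 1 to 10 nM had the directions seen against 0 nM for the called genes, and the step from 10 to 100 nM did not for Tet2. From 0.3 to 3 nM 5 of the 8 genes were called against 5.43% of all genes tested. Dnmt3b (0.43), Tet2 (0.29) and Tet3 (0.70) were higher at 3 nM, and Dnmt3a (-0.36) and Tet1 (-0.33) were lower, as log2 differences. The Dnmt3a step was lost without 0.3 nM replicate 1 (adjusted p = 0.0847), 0.3 nM replicate 2 (0.105) or 3 nM replicate 1 (0.163). From 1 to 10 nM 5 were called against 6.27% of all genes, with log2 differences of 0.23 for Dnmt3b, 0.22 for Tet2, 0.60 for Tet3, -0.35 for Dnmt3a and -0.27 for Tet1. This count was 3 without 1 nM replicate 1, 2 without 1 nM replicate 2 and 2 without 10 nM replicate 2, since the Dnmt3a, Dnmt3b and Tet2 steps are near the threshold.

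From 10 to 100 nM 2 were called, Dnmt3l and Tet2, both lower at 100 nM, against 2.35% of all genes tested. With 10 nM replicate 2 or 100 nM replicate 1 left out Tet2 was lost and the count was 1, and it was 3 without either of the 3 nM libraries, where Dnmt3b was added. A trend over the 6 doses in order, scored 0 to 5, was called for 6 of the 8 genes (3 higher, 3 lower) against 32.1% of all genes. The log2 change per step of dose was 0.27 for Tet3 (SE 0.0194), 0.09 for Dnmt3b (0.0111), 0.07 for Tet2 (0.00927), -0.05 for Dnmt3l (0.0125), -0.13 for Tet1 (0.0084) and -0.13 for Dnmt3a (0.0153). The trend does not show the course of every gene: mean levels were highest at 1 nM for Dnmt3l, 3 nM for Dnmt3b and 10 nM for Tet2.

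The members that moved together across the 12 libraries were Tet1 and Dnmt3a, with a Pearson r of 0.965 between their log2(RPKM + 0.1), and Tet2 and Dnmt3b, with 0.931. Tet3 ran against Tet1 (-0.977) and Dnmt3a (-0.955). The 12 libraries are pairs at 6 doses, so these values describe the shared dose course and carry no test. For these 5 genes the promoters in the RefSeq table are shown, since they are the members with a graded dose course. Each runs from 250 bases before to 50 after the annotated start on GRCm38.p6 (mm10), 5′ to 3′ on the gene's strand. CpG dinucleotides, the substrate of the enzymes themselves, are in capitals. Where a gene has several starts the outermost is shown. All 8 genes have an entry in that table, and the start of Tet1 lies 7310 bases outside the gene model used for counting. GENCODE M21 lists 10 Tet1 transcripts with 10 different starts, so the Tet1 window is 1 of several possible promoters. Dnmt3a has 3 starts in the RefSeq table.
Tet1 (chr10:62887275-62887574, minus strand) and Dnmt3a (chr12:3806730-3807029, plus strand) fell, and they read
Tet1: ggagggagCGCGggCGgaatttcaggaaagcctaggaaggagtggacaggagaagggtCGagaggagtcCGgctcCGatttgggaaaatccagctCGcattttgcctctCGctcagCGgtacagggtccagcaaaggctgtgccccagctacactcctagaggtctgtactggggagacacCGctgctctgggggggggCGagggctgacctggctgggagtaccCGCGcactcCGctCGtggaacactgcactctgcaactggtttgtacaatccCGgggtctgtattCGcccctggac
Dnmt3a: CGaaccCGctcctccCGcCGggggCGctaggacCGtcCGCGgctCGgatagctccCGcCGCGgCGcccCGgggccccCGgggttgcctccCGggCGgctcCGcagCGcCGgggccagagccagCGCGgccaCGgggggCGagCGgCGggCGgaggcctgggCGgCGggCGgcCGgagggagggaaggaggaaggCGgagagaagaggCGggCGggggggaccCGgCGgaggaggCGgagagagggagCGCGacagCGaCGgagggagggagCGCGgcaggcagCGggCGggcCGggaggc
Tet2 (chr3:133544341-133544640, minus strand) and Dnmt3b (chr2:153649199-153649498, plus strand) rose, and they read
Tet2: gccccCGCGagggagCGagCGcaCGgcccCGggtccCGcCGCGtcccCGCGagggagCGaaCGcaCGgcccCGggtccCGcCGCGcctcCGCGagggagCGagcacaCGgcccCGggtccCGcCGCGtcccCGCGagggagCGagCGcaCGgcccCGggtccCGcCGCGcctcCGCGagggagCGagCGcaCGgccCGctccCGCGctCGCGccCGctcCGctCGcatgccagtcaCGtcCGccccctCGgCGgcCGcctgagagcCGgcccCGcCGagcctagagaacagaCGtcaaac
Dnmt3b: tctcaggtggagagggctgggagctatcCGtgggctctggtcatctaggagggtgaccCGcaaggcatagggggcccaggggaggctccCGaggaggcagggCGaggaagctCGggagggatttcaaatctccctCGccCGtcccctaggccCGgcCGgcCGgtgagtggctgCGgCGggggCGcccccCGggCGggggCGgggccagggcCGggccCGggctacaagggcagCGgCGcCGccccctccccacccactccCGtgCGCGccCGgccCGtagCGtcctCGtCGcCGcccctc
Tet3 (chr6:83441629-83441928, minus strand) rose from 1 nM on, and it reads
Tet3: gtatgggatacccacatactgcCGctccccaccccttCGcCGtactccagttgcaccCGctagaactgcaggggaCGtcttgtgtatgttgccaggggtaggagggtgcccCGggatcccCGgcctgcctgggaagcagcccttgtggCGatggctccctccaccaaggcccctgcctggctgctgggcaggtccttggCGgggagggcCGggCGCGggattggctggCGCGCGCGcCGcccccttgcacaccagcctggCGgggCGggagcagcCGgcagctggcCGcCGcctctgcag

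In 300 bases, the Tet1 window had 17 CpGs and that of Dnmt3a 46, against 57 for Tet2, 30 for Dnmt3b and 22 for Tet3. The other 2 Dnmt3a starts had 47 and 18 CpGs, so the place of Dnmt3a among these genes depends on the start taken, and nothing is read from the CpG number about direction. The median of the 32851 promoters of the same length was 7, and 0.152% of them held at least as many CpGs as that of Tet2, 1.65% as many as Dnmt3a, 11.7% as Dnmt3b, 23.1% as Tet3 and 31.4% as Tet1. The GC box, letters GGGCGG on either strand, occurred 6 times in the Dnmt3a window shown, 4 times in Dnmt3b, 2 in Tet3, 1 in Tet2 and 1 in Tet1. Of all promoters 35.7% held it, and the other 2 Dnmt3a starts had 7 and 2. The CCAAT box, letters CCAAT on either strand, was found once in the Tet3 promoter and not in the other 4 windows, and 37.4% of all promoters held it. The E-box CACGTG was in none of the 5 windows shown, with 7.15% of all promoters holding it. It occurred 1 time at the Dnmt3a start with 18 CpGs, so the Dnmt3a motif counts too depend on the start taken.

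Genes with the course most like each called member were taken as the 2 non-members with the highest r over the 12 libraries. They were Tacc1 (0.988) and Zwint (0.985) for Tet1, Suclg1 (0.979) and Syne2 (0.975) for Dnmt3a, and Phc1 (0.983) and Etl4 (0.980) for Tet3. Tacc1 is a centrosomal coiled-coil protein gene, Suclg1 encodes a subunit of succinyl-CoA synthetase, and Phc1 a component of Polycomb repressive complex 1. For Dnmt3b they were Arl14epl (0.964) and Mybl2 (0.951), for Tet2 Cipc (0.960) and Nrg1 (0.956), and for Dnmt3l Pik3r3 (0.927) and Ets2 (0.921). The tenth most similar gene still had 0.974 for Tet1, 0.968 for Dnmt3a and 0.971 for Tet3, but 0.926 for Dnmt3b, 0.929 for Tet2 and 0.898 for Dnmt3l. With a pseudocount of 1 in place of 0.1, Zwint, Nrg1 and Etl4 were no longer among the first 2. Phc1 itself went from 87.1 to 111.5 RPKM at 100 nM (log2 fold change 0.36, edgeR adjusted p = 1.29e-05) and Tacc1 from 12.6 to 6.44 RPKM (-0.96, adjusted p = 3.25e-09).

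Of 33 other genes of the pathway, called partner genes here (readers, cofactors, repair enzymes and suppliers of cofactors), 30 were tested and 12 were called at 100 nM, 6 higher and 6 lower. Of all genes tested, 10.0% were called higher at this dose and 13.3% lower. The split varied with the processing, at 3 higher and 7 lower with no filter or with TMM over all genes, 4 and 7 with a minimum of 10 counts in 2 libraries, and 6 and 3 without normalization factors. Their median log2 fold change was -0.0487. Among the 6 genes around maintenance 2 were called higher and 1 lower. The lower one, Hells, went from 239 ± 4.81 to 199 ± 3.19 RPKM (log2 fold change -0.26, edgeR adjusted p = 0.000994) and was called in 23 of 24 alternatives. Uhrf2, the paralogue of Uhrf1, had 214 and 169 counts in the controls and 355 and 316 with 100 nM. Its level went from 9.04 ± 1.85 to 15.5 ± 1.42 RPKM (log2 fold change 0.78, SE 0.123, edgeR adjusted p = 2.68e-05). Cdca7l, a relative of the HELLS cofactor gene Cdca7, went from 8.74 ± 0.520 to 14.7 ± 0.000526 RPKM (0.75, adjusted p = 6.56e-05). Uhrf2 and Cdca7l were called in all 24 alternatives. Uhrf2 and Uhrf1 are similar in sequence, but multi-mapped read pairs were not counted.

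Among the 6 regulators of methylation in early cells 3 were called, all higher, beside the 10.0% of all genes called higher, and the count was 1 without 0 nM replicate 2 or 100 nM replicate 2. Trim28, the KAP1 corepressor that guards methylation at imprints and retroelements, went from 531 ± 5.98 to 669 ± 29.7 RPKM (log2 fold change 0.33, adjusted p = 6.26e-05), and Kdm1b, a histone H3K4 demethylase needed for maternal imprints, from 5.21 ± 0.108 to 6.68 ± 0.0834 RPKM (0.36, adjusted p = 0.0399). The Kdm1b call was lost when any of the 0 or 100 nM libraries was left out, and over all alternatives its adjusted p reached 0.187. Of the 7 cofactor genes 3 were called, all lower, beside 13.3% of all genes, and the count was 1 without 0 nM replicate 2. These include Idh1 and Idh2, whose NADP-dependent enzymes make 2-oxoglutarate, the TET cosubstrate. Idh1 went from 29.9 ± 1.26 to 21.9 ± 0.705 RPKM (-0.45, adjusted p = 0.000604) and Idh2 from 58.2 ± 3.06 to 46.0 ± 1.44 RPKM (-0.34, adjusted p = 0.00512). Idh2 missed the threshold without 0 nM replicate 2 or 100 nM replicate 2, with an adjusted p of at most 0.0784.

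Of the TET partners Cxxc5, a CXXC zinc finger gene, went from 18.7 ± 2.28 to 13.3 ± 0.477 RPKM (log2 fold change -0.49, edgeR adjusted p = 0.00438). It lost the call without 0 nM replicate 2 or 100 nM replicate 2 (adjusted p up to 0.111). Among 5 readers of methylated DNA 1 was called, Zbtb33, the gene of Kaiso, at 2.59 ± 0.307 and 1.63 ± 0.166 RPKM (-0.66, adjusted p = 0.0154), and it was lost without 0 nM replicate 1 or 100 nM replicate 1 (adjusted p up to 0.136). Without 0 nM replicate 2 the partner calls at 100 nM came to 3 higher and 3 lower. Of the 3 partners below the filter Tdg, the glycosylase that excises oxidized 5-methylcytosine, was listed at 15 and 9 counts in the controls and 11 and 7 with 100 nM. Multi-mapped read pairs were not counted, and whether this lowered the Tdg counts was not tested.

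Germline genes whose promoters are known to be silenced by methylation were also listed. Of 12, 9 passed the filter and 4 of these rose at 100 nM, beside 10.0% of all genes tested, while the other 5 did not pass the test. The median log2 fold change of the 9 was 0.53 at 100 nM and 0.61 at 10 nM, where 6 were called, all higher, beside 7.50% of all genes. Ddx4, the germ cell RNA helicase gene, had 187 and 169 counts in the controls and 304 and 327 with 100 nM (log2 fold change 0.80, SE 0.12, edgeR adjusted p = 1.31e-05). Its changes at 0.3, 1, 3 and 10 nM were 0.32, 0.51, 0.70 and 0.89 on the log2 scale. Mael, a piRNA pathway gene, had 19 and 20 counts in the controls and 44 and 42 with 100 nM (1.11, SE 0.312, adjusted p = 0.0102), and Sycp1, a synaptonemal complex gene, 56 and 87 against 109 and 120 counts (0.66, SE 0.195, adjusted p = 0.0151).

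Some of the germline calls at 100 nM were lost when 1 library was left out, and fewer of all genes were called in those fits too. Without 100 nM replicate 2 the count at 100 nM was 2, and without 0 nM replicate 1 it was 1, Ddx4, which was called in all 24 alternatives. Mael was lost without either 0 nM library or 100 nM replicate 1 (adjusted p up to 0.065) and Sycp1 without 0 nM replicate 1 or 100 nM replicate 2 (adjusted p up to 0.225). DNA methylation itself was not measured in these libraries, so these are transcript levels only.

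**Figure D4:**
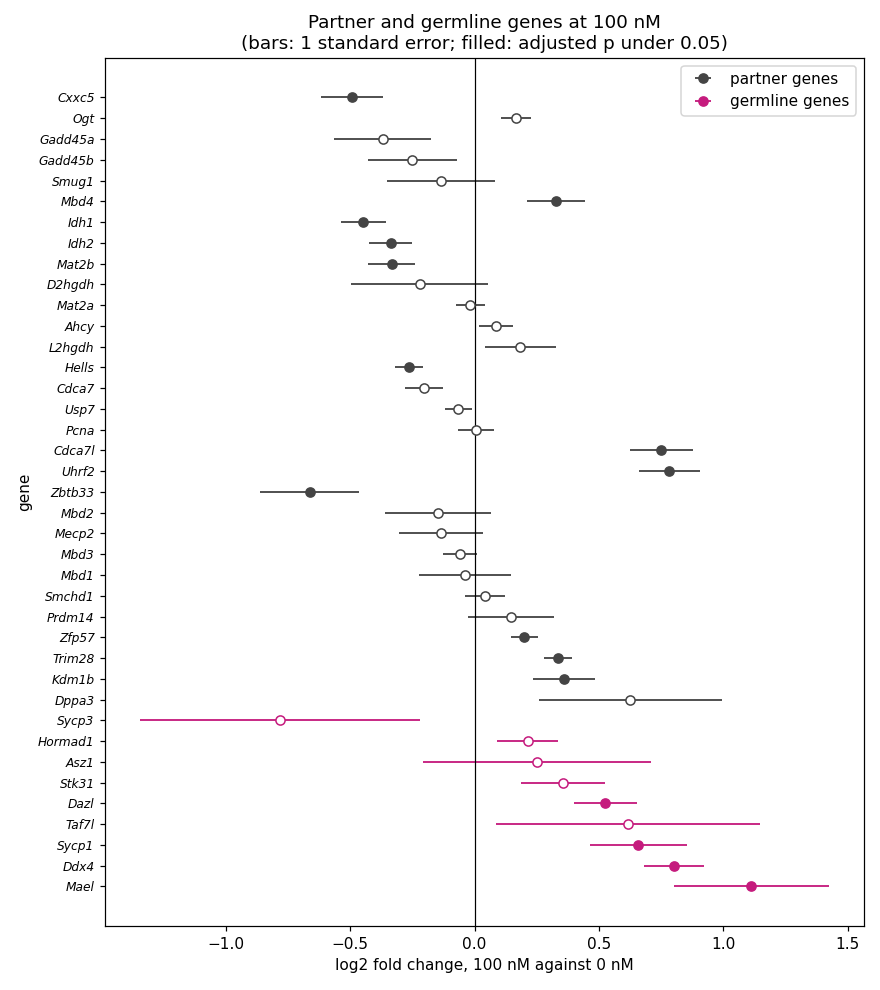
Log2 fold change at 100 nM against 0 nM (x axis) of the 30 partner genes and 9 germline genes tested (y axis, grouped by role), from the edgeR fit. Bars are 1 SE and filled points have an adjusted p under 0.05; partner genes lie on both sides of 0, and the 4 filled germline genes lie between 0.53 and 1.11.

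Some markers of neighbouring cell states were called at 100 nM, where 23.4% of all genes tested were (10.0% higher, 13.3% lower). Of the 7 naive mES cell markers 2 were higher at 100 nM, among them Nanog (228 ± 2.98 to 327 ± 0.562 RPKM, log2 fold change 0.52), and 3 were lower, among them Tfcp2l1 (130.3 ± 1.30 to 83.6 ± 1.48 RPKM, -0.64). Without 0 nM replicate 2 or 100 nM replicate 2 the count of lower ones was 1. Of 9 formative or primed markers 6 were tested and 2 were called, Zic2 (0.75) and Tcf15 (0.85), both higher, of which Tcf15 was lost without 0 nM replicate 2 (adjusted p = 0.086). At 3 nM, where 9.53% of all genes were called, 1 of the 6 was called higher and 1 lower. The lower one was Zic2 (log2 fold change -0.57, edgeR adjusted p = 0.0267). At 10 nM 2 of the 6 were called higher and 0 lower, beside 7.50% of all genes called higher. At 1 nM, where 4 of the 8 methylation and TET genes were called, Nanog was higher (log2 fold change 0.20, edgeR adjusted p = 0.0317). Tfcp2l1 was lower at that dose (-0.22, adjusted p = 0.0124), and the other naive markers were not called. Among the formative and trophectoderm markers the lowest edgeR adjusted p at 1 nM was 0.0604 (Eomes). Eomes was called higher at 3 nM (log2 fold change 0.59, edgeR adjusted p = 0.00177) and at 10 nM (0.53, adjusted p = 0.00197). Cdx2 was called higher at 10 nM (1.575, edgeR adjusted p = 0.0269). No trophectoderm marker was called lower at 3 or 10 nM. The formative list summed to 97.4 to 104 RPKM at 0 nM and 121.8 to 122.1 RPKM at 100 nM. Fgf5, a defining gene of that state, was at 0 counts in both 0 nM libraries and at 1 and 0 at 100 nM. Of 6 trophectoderm markers 4 were tested and 3 were higher, Cdx2 (10 and 4 counts against 64 and 60), Tfap2c and Eomes, and the list went from 13.15 to 16.01 RPKM at 0 nM to 22.25 to 22.6 RPKM at 100 nM. That count was 1 without 0 nM replicate 2 or 100 nM replicate 2. Gata3, the other tested marker of this list, went the other way, with 28 and 23 counts against 12 and 10. Its log2 fold change at 100 nM was -1.23 without a call (edgeR adjusted p = 0.0917), and its trend over the doses was called lower (adjusted p = 0.0302). The 6 markers of 2-cell-like cells summed to 3.03 to 4.73 RPKM at 0 nM and 2.60 to 3.21 RPKM at 100 nM, with Zscan4d, the 1 tested, at a log2 fold change of 0.07 (adjusted p = 0.943). The part of these markers in the changes of the methylation and TET genes was not tested.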

How the data were processed

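Total RNA of 12 libraries was sequenced as read pairs (SMART-Seq Stranded kit, per the labels). The authors deposited raw counts per gene symbol from Trim Galore, HISAT2 on mm10 and featureCounts 2.0.1, without multi-mapped pairs and without use of strand, so antisense reads cannot be told apart. No exon base of the 8 genes is shared with another gene of the table or of GENCODE M21. The members, lists and tests were chosen with earlier results of these data known.

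RPKM used TMM-scaled totals. Genes with a mean RPKM of at least 1 (11378 of 24421) were tested with edgeR 4.0.16 (R 4.3.3): TMM factors over the tested genes, the 6 doses in 1 fit, quasi-likelihood tests, Benjamini-Hochberg adjustment over all genes tested, threshold 0.05. Standard errors are the log2 fold change over the root of F. The steps were tested on simulated data. Totals ran from 4663484 to 6375582 counts. Error bars in the figures come from the fit of all 12 libraries, whereas each SD in the text covers 2. Likelihood ratio tests, DESeq2 1.42.0, other scalings, filters and subsets were alternatives. Further ones, TMM over all genes and the 8 libraries of 0, 1, 10 and 100 nM for the dose comparisons, were chosen after seeing the data. Named genes were the 8 members, up to 8 called partners and up to 3 genes of any other list. The 2 non-members most correlated with each called member on log2(RPKM + 0.1) were named too. Tdg, Fgf5, Gata3 and Hells were added after their values were seen. Sequences and motif counts came from RefSeq promoters on GRCm38.p6.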

Additional observations from a re-analysis of the deposited data

How the results depend on the processing

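At 100 nM the calls of Dnmt3a, Dnmt3b, Dnmt3l, Tet1 and Tet3 held in all 24 alternatives, and that of Tet2 in all but the fit with no filter on low values. The trend calls of all 6 held in every alternative. Uhrf1 was called lower as well with no filter on low values (-0.032 per step of dose, edgeR adjusted p = 0.00391) and with TMM over all genes (adjusted p = 0.00386). In both of these fits the median trend of the genes tested in the main fit was -0.0159. Without normalization factors the number of the 8 genes called was 1 at 1 nM, 2 from 1 to 10 nM and 1 from 10 to 100 nM. With a fold change over 1.5 added it was 0 for 1 nM and 2 for each of 3, 10 and 100 nM. At 100 nM 11.2% of all genes met this rule, and that share was not counted at the other doses. Leaving out each library in turn gave 1 to 4 genes at 1 nM, 2 to 5 from 1 to 10 nM and 1 to 3 from 10 to 100 nM.

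Changes of sign were seen only in uncalled values. The Dnmt1 trend was 0.0027 without normalization factors, and it ran from -0.0217 to 0.0038 when libraries were left out in turn. Dnmt1 at 100 nM was -0.0495 with no filter and -0.0495 with TMM over all genes, and from -0.055 to 0.120 over the libraries left out, with -0.0076 without 100 nM replicate 1. From 10 to 100 nM, leaving out libraries gave -0.119 to 0.11 for Dnmt3a, -0.0677 to 0.014 for Tet1 and -0.0204 to 0.179 for Tet3. The cause was not tested. DESeq2 called 132, 634 and 1307 of all genes at 1, 3 and 10 nM, where edgeR called 271, 1084 and 2018. It called 345, 408 and 177 for the 3 steps in dose order, where edgeR called 618, 713 and 267. At 0.3 nM edgeR called 8 genes in all and 36 with no filter. Without normalization factors the calls of all genes were 3 at 0.3 nM, 150 at 1 nM, and 367 and 168 for the first and last steps. Leaving out 0 nM replicate 2 gave 1772 of all genes at 100 nM against 2659.

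Correlations of same-numbered deviations from the dose means ran from -0.0949 to 0.0926 over 15 pairs of doses. Counting noise enters these values, so they cannot tell whether same-numbered libraries shared a culture or day. A replicate block left the counts of called genes at 0, 4, 5, 5 and 6 for the 5 doses in order and changed no call of the 8 genes. Depths of 4663484 to 6375582 counts per library and 2 libraries per dose limit the low genes most, Tet3 among the 8.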
